A study of Homo sapiens with 15 samples.

Results

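A group of 9 genes that encode secreted interleukins, their relatives or an interleukin antagonist was followed in MDA-MB-468 cells, an established human breast cancer cell line with abundant EGFR. They are IL1A, IL1B, IL1RN, IL36G and IL18 of the interleukin-1 family, IL6, IL11 and LIF of the interleukin-6 family, and IL32. Each symbol was matched to 1 Ensembl gene, so 9 of the 61552 genes in the counts table were described. The genes were picked by symbol, with earlier results of these data known. IL1A, IL1B, IL36G and IL1RN lie close together on chromosome 2, and the 3 most abundant members lie at chr22:30240453-30246759 (LIF, minus strand), chr11:112143253-112164096 (IL18, minus strand) and chr2:113099315-113134016 (IL1RN, plus strand) in GRCh38.

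The RNA-Seq data hold 15 libraries in 5 groups of 3 replicates. In the drug experiment, cells without serum for 12 h received EGF at 10 ng/mL, the ligand of EGFR, for 12 h with no drug (EGF), with 10 μM cSNX1.3 or with 15 μM erlotinib. cSNX1.3 is a peptide directed at the contact of EGFR with Sorting Nexin 1 and lowers the amount of EGFR in the nucleus, and erlotinib is a small molecule that blocks the EGFR tyrosine kinase. In the line experiment, an inducible short hairpin RNA lowered the cells' own EGFR, and GFP-tagged EGFR was put in its place, either wildtype (WT) or with a mutated nuclear localization signal (ΔNLS). Both lines share the hairpin and its inducer and were treated with EGF at a dose and time not given in the sources used here, and nothing says whether each is 1 clone. No library treated with a control peptide is among the 15. The question was which transcripts depend on EGFR in the nucleus and which on its kinase.

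Interleukin-1 family ligands bind paired receptors that signal through MYD88 and NF-κB, and the product of IL1RN occupies the receptor without activating it. IL18 is made as a precursor that caspase-1 cuts into an active form, which is known for stimulating natural killer and T cells. IL6, IL11 and LIF all signal through gp130, encoded by IL6ST, to JAK kinases and STAT3, each with a receptor chain of its own. LIF is also known as a gene that growth factor signaling induces in epithelial cells.

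Library totals ranged from 22915676 to 35900649 counts, and the counts of every pair of replicates differed beyond sampling noise (chi-square over its degrees of freedom 2.60 to 22.3). Whether the replicates are separate cultures is not stated, so p-values measure the spread between these libraries. The EGFR gene held 4316 to 6498 CPM, counts scaled to a common library size, in the drug libraries and 1146 to 1745 CPM in the line libraries. In the line libraries the cells' own and the introduced EGFR were not told apart. It was higher in ΔNLS than in WT cells by 0.37 on the log2 scale (standard error of the fit 0.09, Benjamini-Hochberg adjusted p = 0.00367 in edgeR). Epithelial marker genes were detected in every library, with a summed level of 10451 to 25925 CPM over 8 genes. Of 8 leukocyte markers, PTPRC, which encodes CD45, had at most 7 counts, CD3E and CD68 at most 2, and MS4A1 0 in every library, whereas CD14 had 248 to 1454 counts and ITGAM 26 to 125. The summed leukocyte marker level was 15.9 to 21.4 CPM with EGF, 10.5 to 15.3 with cSNX1.3, 39.4 to 43.2 with erlotinib, 28.0 to 41.1 in WT and 40.2 to 45.0 in ΔNLS cells. The part of this marker level in the results below was not tested.

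Promoter windows from RefSeq (GRCh38.p14), 300 bases long and placed around a start site, were found for 7 of the 9 genes, in 11 windows. LIF and IL18 had no entry. The windows were searched on both strands for TGACTCA, the motif of AP-1, which acts downstream of EGFR and ERK, for GGANTTTCC, a motif of NF-κB, for the cAMP response element TGACGTCA and for the C/EBP motif TTGCGCAA. TGACTCA stood in windows of IL1A, IL1RN and IL11, 3 of the 7 genes. These were 4 of the 11 windows, including both overlapping windows of IL1A, against 4.95% of all 35116 promoter windows. GGANTTTCC stood in 2 of the 11 windows, those of IL6 and IL32, against 1.64% of all windows. TGACGTCA stood in a window of IL32, against 1.85% of all windows, and TTGCGCAA in none of the 11, against 0.151%. A match is only a run of letters in the window, and the windows of 1 gene can overlap. The following stretches of 30 bases are shown because they hold matches of the members that had both a window and counts above the floor described below, with the match in capitals, on the strand of the gene. The site of IL1RN lies in the most upstream of its 3 windows (chr2:113117737-113117766, plus strand), 223 bases before the start site. The others lie at chr19:55370541-55370570 (minus strand), chr7:22727118-22727147 (plus strand) and chr16:3065325-3065354 (plus strand), 96, 72 and 68 bases before their start sites, the last being 1 of 2 GGANTTTCC matches in that window of IL32.
IL1RN: ttctgctagccTGAGTCAccctcctggaaa
IL11: ggcagggagggTGAGTCAggatgtgtcagg
IL6: atcaaatgtgGGATTTTCCcatgagtctca
IL32: tcccgagtctGGACTTTCCctctgcccctc
In IL1RN and IL11 the capitals read as the reverse complement of TGACTCA. IL1RN and IL11 moved in opposite directions in the line experiment.

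The 9 genes fell into 3 levels of abundance. IL1A, IL1B and IL36G were at or below 3 counts in all 15 libraries, a floor of 0.0829 to 0.137 CPM, so no change in them was detectable at this depth. IL6, IL11 and IL32 were scarce, between 0 and 26 counts per library. LIF, IL1RN and IL18 were abundant enough for a test in every comparison. Per kilobase of exon, IL18 had the highest mean level in each group, 14.2 ± 0.344 CPM per kilobase with EGF (SD, n = 3), against 5.59 ± 0.754 for LIF and 2.76 ± 0.0647 for IL1RN. In the WT line the level of IL18 reached 50.3 ± 4.83 CPM per kilobase.

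**Figure D1:**
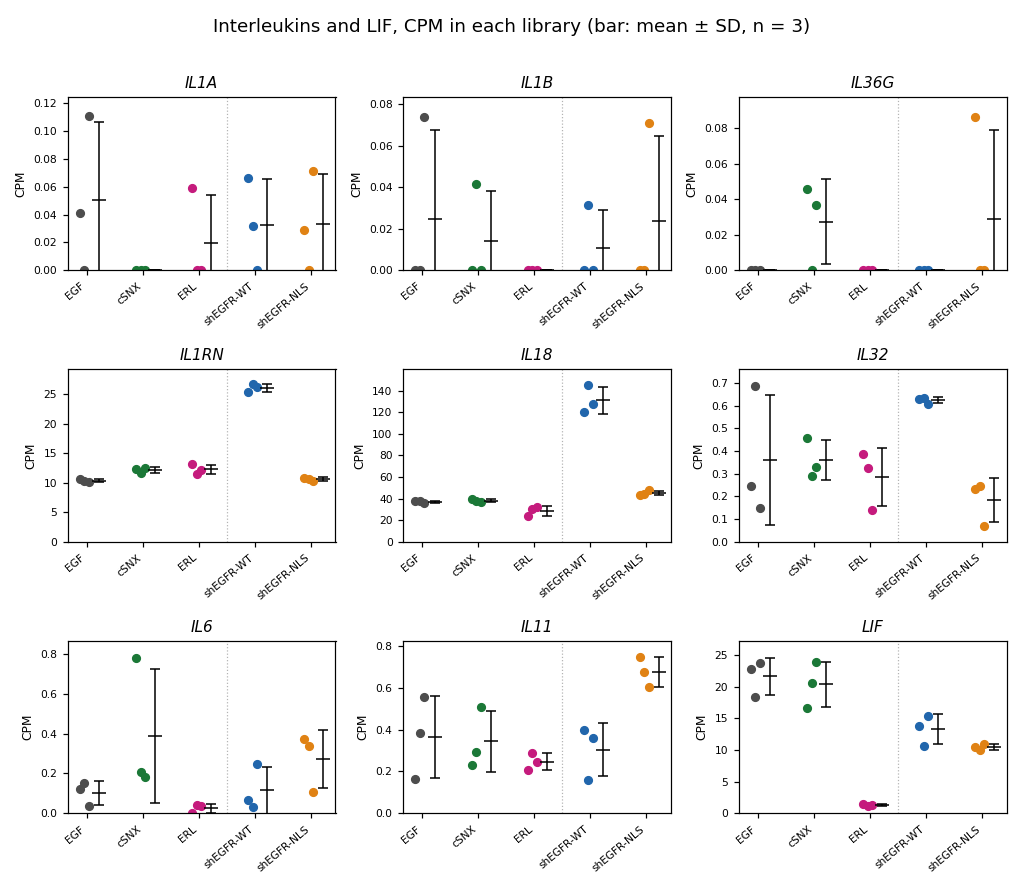
Level of each of the 9 genes in CPM (linear axes from 0, a different scale per gene) in the 15 libraries, with the 3 replicates as points and the mean ± SD beside them, and a dotted line between the drug and the line experiments. LIF fell to 1.19 to 1.54 CPM with erlotinib, IL18 and IL1RN stood highest in WT cells (120 to 145 and 25.4 to 26.7 CPM), and the top row shows 0 to 3 counts per library.

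LIF, the leukemia inhibitory factor, was the member that moved most with erlotinib. Its level was 22.9, 18.3 and 23.8 CPM in the EGF libraries and 1.54, 1.19 and 1.30 CPM in the erlotinib libraries. The lowest EGF library stood far above the highest erlotinib library, and the mean fell from 21.7 ± 2.92 to 1.34 ± 0.181 CPM (SD, n = 3 each). This is a log2 fold change of -3.98 (standard error of the fit, SE, 0.18, 95% confidence interval -4.37 to -3.60, Benjamini-Hochberg adjusted p = 1.83e-10 in edgeR), or 15.8-fold lower. Among the 15738 genes tested, LIF had the 20th lowest log2 fold change. In bulk RNA, less LIF RNA per cell and fewer cells expressing it cannot be told apart.

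With cSNX1.3, LIF was at 16.7, 20.6 and 23.9 CPM, a range that overlapped that of the EGF libraries. The log2 fold change of -0.08 (SE 0.14, 95% confidence interval -0.38 to 0.22, edgeR adjusted p = 0.819) was not distinguishable from 0. A change as large as that with erlotinib lies outside it. Erlotinib against cSNX1.3 gave a log2 fold change of -3.90 (SE 0.18, edgeR adjusted p = 8.63e-11). The comparisons with EGF share the 3 EGF libraries.

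In the line experiment LIF was at 13.9, 10.7 and 15.4 CPM in WT and 10.5, 9.98 and 11.02 CPM in ΔNLS cells. The groups overlapped, since the lowest WT library lay between ΔNLS libraries. The log2 fold change of -0.35 (SE 0.12, edgeR adjusted p = 0.0325) passed the test, but the adjusted p rose to between 0.0639 and 0.180 when any 1 of 5 of the 6 libraries was left out, the exception being WT replicate 2, and to 0.0664 in a fit of all 15 libraries. The ΔNLS effect on LIF differed from the erlotinib effect by 3.65 on the log2 scale (SE 0.23, edgeR adjusted p = 1.30e-10), and its difference from the cSNX1.3 effect, -0.26 (SE 0.20, edgeR adjusted p = 0.378), was not distinguishable from 0. From highest to lowest, the group means of LIF were in the order EGF, cSNX1.3, WT, ΔNLS and erlotinib. In this order EGF and cSNX1.3 overlapped and so did WT and ΔNLS, whereas WT lay below cSNX1.3 and erlotinib below ΔNLS with no overlap. Across the 2 experiments the cell line and the treatment schedule cannot be told apart.

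IL18, the most abundant member, was lower in ΔNLS than in WT cells. Its level was 120, 145 and 128 CPM in WT cells and 43.5, 44.1 and 47.7 CPM in ΔNLS cells. Every WT library was above every ΔNLS library, with means of 131 ± 12.6 and 45.1 ± 2.29 CPM (SD, n = 3 each). The log2 fold change was -1.54 (SE 0.08, edgeR adjusted p = 5.27e-10), or 2.91-fold lower in ΔNLS cells. IL18 had the 247th lowest log2 fold change of the 15805 genes tested.

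In the drug experiment IL18 was at 37.3, 37.8 and 36.1 CPM with EGF and at 39.3, 37.7 and 36.5 CPM with cSNX1.3, overlapping ranges with a log2 fold change of 0.03 (SE 0.11, 95% confidence interval -0.19 to 0.26, edgeR adjusted p = 0.908). With erlotinib it was at 23.7, 29.98 and 32.0 CPM, below all EGF libraries. The log2 fold change was -0.37 (SE 0.11, edgeR adjusted p = 0.0114), and with offsets for GC content and transcript length, an alternative chosen after seeing the data, it was -0.62. Without erlotinib replicate 1, the lowest of its group, it was -0.24 (edgeR adjusted p = 0.0439). Erlotinib was also below cSNX1.3, with a log2 fold change of -0.40 (SE 0.11, edgeR adjusted p = 0.00497).

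Tested in a fit of all 15 libraries, the ΔNLS effect on IL18 minus the cSNX1.3 effect was -1.57 on the log2 scale (SE 0.14, edgeR adjusted p = 2.28e-08), and minus the erlotinib effect it was -1.16 (SE 0.14, edgeR adjusted p = 7.98e-07). The group means of IL18 ran from WT through ΔNLS, cSNX1.3 and EGF down to erlotinib, and only the neighbours cSNX1.3 and EGF overlapped. The 45.1 CPM of ΔNLS cells was thus nearer to the 37.1 ± 0.897 CPM of the EGF libraries than the 131 CPM of WT cells was, a comparison across experiments that was not tested.

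IL1RN, the interleukin-1 receptor antagonist, had a similar order between the lines. It was at 25.4, 26.7 and 26.1 CPM in WT cells and 10.8, 10.6 and 10.2 CPM in ΔNLS cells, 2 tight groups that did not overlap. The log2 fold change was -1.30 (SE 0.09, edgeR adjusted p = 6.96e-09), or 2.46-fold lower in ΔNLS cells. In the drug experiment IL1RN was at 10.6, 10.2 and 10.1 CPM in the EGF group, 12.4, 11.6 and 12.4 CPM in the cSNX1.3 group and 13.1, 11.5 and 12.2 CPM in the erlotinib group. All 6 libraries with a drug were above all EGF libraries, but neither change was called. The log2 fold change was 0.23 for cSNX1.3 (SE 0.11, edgeR adjusted p = 0.258) and 0.26 for erlotinib (SE 0.11, edgeR adjusted p = 0.0636).

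The value for erlotinib lay close to the threshold. Its adjusted p was 0.0285 in a fit of all 15 libraries, 0.0429 with at least 10 counts in every library and 0.0468 without erlotinib replicate 2. The ΔNLS effect on IL1RN minus the cSNX1.3 effect was -1.53 (SE 0.13, edgeR adjusted p = 1.18e-08), and minus the erlotinib effect it was -1.55 (SE 0.13, edgeR adjusted p = 4.91e-09), both on the log2 scale. In the order of its means, WT stood apart at the top, erlotinib and cSNX1.3 overlapped below it, and ΔNLS and EGF overlapped at the bottom.

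IL32, a proinflammatory cytokine outside both families, was scarce. It had 19, 20 and 22 counts in WT and 8, 8 and 2 counts in ΔNLS libraries, or 0.628, 0.633 and 0.608 CPM against 0.231, 0.246 and 0.0711 CPM. The groups did not overlap, with a log2 fold change of -1.71. IL32 passed the filter on low counts only through its 3 WT libraries, the group where it was high, so its call after filtering is given as a description. In a fit with no filter, the log2 fold change was -1.72 (SE 0.47, edgeR adjusted p = 0.00203 over 30081 genes). In the drug experiment it had 6, 18 and 4 counts with EGF, 10, 7 and 9 with cSNX1.3 and 13, 8 and 4 with erlotinib. These ranges overlapped, with log2 fold changes of -0.01 for cSNX1.3 (SE 0.55) and -0.31 for erlotinib (SE 0.56), so only large changes were detectable. EGF replicate 2, at 18 counts, was the highest library of the drug experiment. Neither sign was settled. With 1 library left out, the log2 fold change ran from -0.39 to 0.84 for cSNX1.3 and from -0.69 to 0.54 for erlotinib. The ΔNLS effect minus the cSNX1.3 effect on IL32 was -1.69 on the log2 scale (edgeR adjusted p = 0.108). Minus the erlotinib effect it was -1.38 (edgeR adjusted p = 0.135). Without EGF replicate 2 these differences were -2.54 (edgeR adjusted p = 0.0150) and -2.24 (edgeR adjusted p = 0.0185). On the same strand, IL32 shares 129 exon bases with the small RNA gene RNU1-125P.

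IL11 was the only member called higher in ΔNLS cells. It had 12, 5 and 13 counts in WT and 26, 22 and 17 counts in ΔNLS libraries, with means of 0.305 ± 0.128 and 0.677 ± 0.0724 CPM (SD, n = 3 each). The groups did not overlap, and the log2 fold change was 1.14 (SE 0.38, edgeR adjusted p = 0.0223). The call rests on few counts. With DESeq2 the adjusted p was 0.0561, and in edgeR it rose to between 0.0583 and 0.0895 without ΔNLS replicate 1, ΔNLS replicate 2 or WT replicate 2. In the drug experiment IL11 had 4, 10 and 15 counts with EGF, 5, 7 and 14 with cSNX1.3 and 7 in each erlotinib library, overlapping ranges that did not pass the filter for a test. The ΔNLS effect on IL11 exceeded the erlotinib effect by 1.74 on the log2 scale (SE 0.64, edgeR adjusted p = 0.0325). That call was lost without any 1 of EGF replicates 2 and 3, erlotinib replicates 1 and 3, ΔNLS replicates 1 and 2 or WT replicate 2, where the adjusted p was 0.0530 to 0.152.

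IL6, a proinflammatory ligand of gp130, was close to the floor in most libraries. It had 3, 4 and 1 counts with EGF, 17, 5 and 5 with cSNX1.3 and 0, 1 and 1 with erlotinib. The cSNX1.3 libraries were above all others of the drug experiment, the EGF and erlotinib libraries overlapped, and 1 cSNX1.3 library held 17 of the 27 counts of its group. Summed over libraries and scaled to library size, cSNX1.3 had 3.58 times the IL6 of EGF (exact Poisson interval 1.58 to 9.11) and 16.0 times that of erlotinib (4.01 to 138), intervals that cover counting error only and rest on 27, 8 and 2 counts. IL6 did not pass the filter within either experiment. With no filter, edgeR adjusted p was 0.272 for cSNX1.3 against EGF, 0.255 for erlotinib against EGF and 0.000659 for erlotinib against cSNX1.3. In the lines IL6 had 2, 1 and 9 counts in WT and 13, 11 and 3 in ΔNLS libraries, which overlapped (edgeR adjusted p = 0.239 with no filter). In the fit of all 15 libraries IL6 passed the filter, but only through 1 cSNX1.3 and 2 ΔNLS libraries, in groups where it was high. The ΔNLS effect minus the erlotinib effect on IL6 is therefore given as a description. It was 3.15 on the log2 scale (SE 1.46), and 4.37 without WT replicate 3, which held 9 of the 12 WT counts. With no filter it was 3.15 (SE 1.32, edgeR adjusted p = 0.0729 over 33721 genes). Because strand was not used in counting, reads in the 428 exon bases that IL6 shares with the antisense gene IL6-AS1, 9.91% of its exon length, were not told apart. LIF likewise shares 86 exon bases with LIF-AS1 and 83 with LIF-AS2.

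Counted together, 4 of the 9 members were tested in the drug experiment. With erlotinib, 2 of them were called lower (LIF and IL18) and 0 higher, where 44.0% of all 15738 genes were called, 21.2% lower and 22.8% higher. With cSNX1.3, edgeR called 0 of the 4, where 6.07% of all genes were called, 3.38% higher and 2.69% lower. At an unadjusted p under 0.05, 1 member, IL1RN, passed with cSNX1.3, and DESeq2 also called 0. In erlotinib against cSNX1.3, 2 of 4 were called lower, where 56.1% of all genes were called, 28.5% higher and 27.6% lower. In ΔNLS against WT cells 5 members were tested, of which 4 were called lower and 1 higher, where 41.4% of all 15805 genes were called, 21.0% lower and 20.4% higher. The median log2 fold change of the tested members was -0.34 with erlotinib, 0.011 with cSNX1.3 and -1.30 in ΔNLS cells, against 0.0082, 0.0020 and 0.0062 for all genes. IL32 entered the count and median for the lines only through its WT level, where it was high. The calls apart from IL32 were LIF, IL18 and IL1RN lower and IL11 higher. The count and median for the lines describe only the members that could be tested. Of the 6 members tested in the fit of all 15 libraries, 2 had a lower ΔNLS than cSNX1.3 effect, where 23.1% of all 16524 genes differed, 11.8% lower and 11.3% higher. Against the erlotinib effect 2 had a lower and 2 a higher ΔNLS effect, where 44.7% of all genes differed, 22.1% lower and 22.6% higher. IL6, which was not called in either difference, entered these counts only through cSNX1.3 and ΔNLS libraries.

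**Figure D2:**
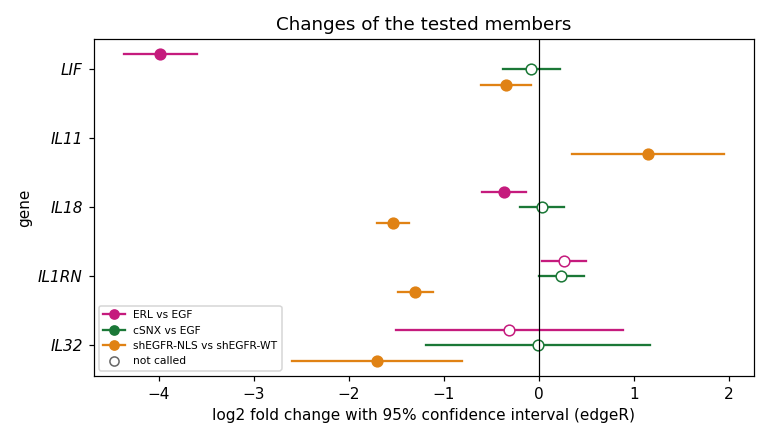
Log2 fold change (x axis) of each member that was tested, with its 95% confidence interval as a line, for erlotinib (ERL) and cSNX1.3 (cSNX) against EGF and for ΔNLS against WT cells. Filled circles were called at an adjusted p under 0.05 and open circles were not, and LIF with erlotinib at -3.98 lies beyond all other values. In the lines, IL32 passed the filter only through its WT libraries, where it was high.

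The receptor list had 14 genes, of which 12 were tested in the drug experiment. With cSNX1.3 5 were higher and 0 lower, that is 41.7% of the receptors tested against 6.07% of all genes. With erlotinib 5 were lower and 4 higher, 75.0% against 44.0% of all genes. IL1R2 and IL1RL1 had no erlotinib library over the filter's minimum, and without them 3 were lower and 4 higher of 10. In ΔNLS cells 5 of 13 were higher and 4 lower, 69.2% against 41.4% of all genes, with no common direction (median log2 fold change -0.07). Without CNTFR, which passed the filter only through its ΔNLS libraries, 4 of 12 were higher and 4 lower. The 5 higher with cSNX1.3 were IL1R2, IL1RL1, IL6R, IL1RAP and OSMR. The median log2 fold change of the receptors was -0.40 with erlotinib and 0.59 with cSNX1.3. With IL1R2 and IL1RL1 set to their floor bound, the median with erlotinib had to stay at -0.40, since both remained below it. Without them, the median of the 10 receptors left was -0.27.

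IL1RL1 encodes the receptor of interleukin-33. It was at 1.93, 2.21 and 1.29 CPM with EGF and 5.31, 5.09 and 5.51 CPM with cSNX1.3, groups far apart, a log2 fold change of 1.55 (SE 0.22, edgeR adjusted p = 0.000296). With erlotinib it had 1, 0 and 1 counts, so that EGF had 78.1 times its level (exact Poisson interval 21.2 to 651, from 140 and 2 counts). In the lines it was at 9.09, 8.79 and 8.76 CPM in WT and 2.25, 1.51 and 1.53 CPM in ΔNLS cells, a log2 fold change of -2.32 (SE 0.16, edgeR adjusted p = 7.61e-09). IL1RL1 was thus lower in ΔNLS cells and higher with cSNX1.3.

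IL1R2 encodes the decoy receptor, which binds interleukin-1 without signaling. It was at 0.616, 1.15 and 1.04 CPM with EGF and 5.31, 3.13 and 3.61 CPM with cSNX1.3, a log2 fold change of 2.09 (SE 0.30, edgeR adjusted p = 0.000381) with no overlap. With erlotinib it had 2, 2 and 0 counts, and EGF had 20.4 times its level (exact Poisson interval 7.62 to 76.7, from 73 and 4 counts). In ΔNLS against WT cells it was higher by 0.71 on the log2 scale (SE 0.22, edgeR adjusted p = 0.0165).

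IL6R, the receptor chain for IL6, was at 2.42, 2.02 and 2.88 CPM with EGF, 5.54, 5.96 and 6.13 CPM with cSNX1.3 and 1.54, 0.982 and 1.23 CPM with erlotinib. The 3 groups did not overlap, with log2 fold changes of 1.27 for cSNX1.3 (edgeR adjusted p = 0.000620) and -0.94 for erlotinib (edgeR adjusted p = 0.00254). The 2 chains of the LIF receptor, LIFR and IL6ST, which were chosen after their values were seen, went the other way from LIF with erlotinib. LIFR was at 12.5, 14.1 and 13.0 CPM with EGF and 17.8, 25.0 and 19.3 CPM with erlotinib, a log2 fold change of 0.66 (SE 0.13, edgeR adjusted p = 0.000704). IL6ST was higher with erlotinib by 0.49 on the log2 scale (SE 0.11, edgeR adjusted p = 0.00232). With cSNX1.3 the log2 fold changes were -0.04 for LIFR (edgeR adjusted p = 0.903) and -0.08 for IL6ST (edgeR adjusted p = 0.769). In the lines both means were lower in ΔNLS than in WT cells, as that of LIF was. IL6ST was at 78.8 against 103 CPM with no overlap, and LIFR at 10.2 against 11.0 CPM with overlap.

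Of the 14 other ligands and antagonists of both families, 4 were tested in the drug experiment. CLCF1, a ligand of the ciliary neurotrophic factor receptor that also signals through gp130, was at 5.38, 3.09 and 5.66 CPM with EGF, 6.55, 10.5 and 12.7 CPM with cSNX1.3 and 1.24, 0.859 and 1.37 CPM with erlotinib. It rose with cSNX1.3 by 1.08 on the log2 scale (SE 0.25, edgeR adjusted p = 0.0172) and fell with erlotinib, with a log2 fold change of -1.995 (SE 0.30, edgeR adjusted p = 9.45e-05). IL18BP, the soluble protein that binds and neutralizes IL18, was at 3.84, 4.46 and 4.92 CPM in WT and 0.836, 1.26 and 1.17 CPM in ΔNLS cells. The groups did not overlap, and IL18BP was lower in ΔNLS cells with a log2 fold change of -2.02 (SE 0.19, edgeR adjusted p = 4.41e-07), as IL18 itself was.

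Genes for the processing and release of interleukin-1 family proteins were mostly lower in ΔNLS than in WT cells. Of 16 listed genes 13 were tested, and 10 were lower and 0 higher, 76.9% against 41.4% of all genes, with a median log2 fold change of -0.61. AIM2, a DNA sensor that assembles an inflammasome, had 56, 85 and 99 counts in WT and 8, 2 and 4 counts in ΔNLS libraries, and at most 3 counts in any drug library. AIM2 passed the filter only through its WT libraries, where it was high, so its log2 fold change of -4.02 is given as a description. Without AIM2, 9 of 12 genes of the list were lower and 0 higher, with a median of -0.56. PYCARD, the adaptor that joins such sensors to caspase-1, was at 43.8, 45.8 and 34.6 CPM in WT and 28.4, 20.8 and 21.3 CPM in ΔNLS cells, a log2 fold change of -0.81 (edgeR adjusted p = 0.000109). CASP1, the protease that activates IL18, was lower in ΔNLS cells (log2 fold change -0.61, edgeR adjusted p = 1.65e-05).

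With erlotinib the same list was mixed, 6 higher and 3 lower of 13 (69.2%, against 44.0% of all genes), with a median of 0.35. CASP1 was at 19.6, 21.9 and 17.6 CPM with EGF and 37.5, 42.6 and 40.4 CPM with erlotinib, and rose by 1.04 on the log2 scale (SE 0.10, edgeR adjusted p = 9.89e-07). IL18 RNA was lower in that comparison. With cSNX1.3, 1 of the 13 was called (7.69%, against 6.07% of all genes), CAPN2, a calpain subunit, higher by 0.40 on the log2 scale.

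**Figure D3:**
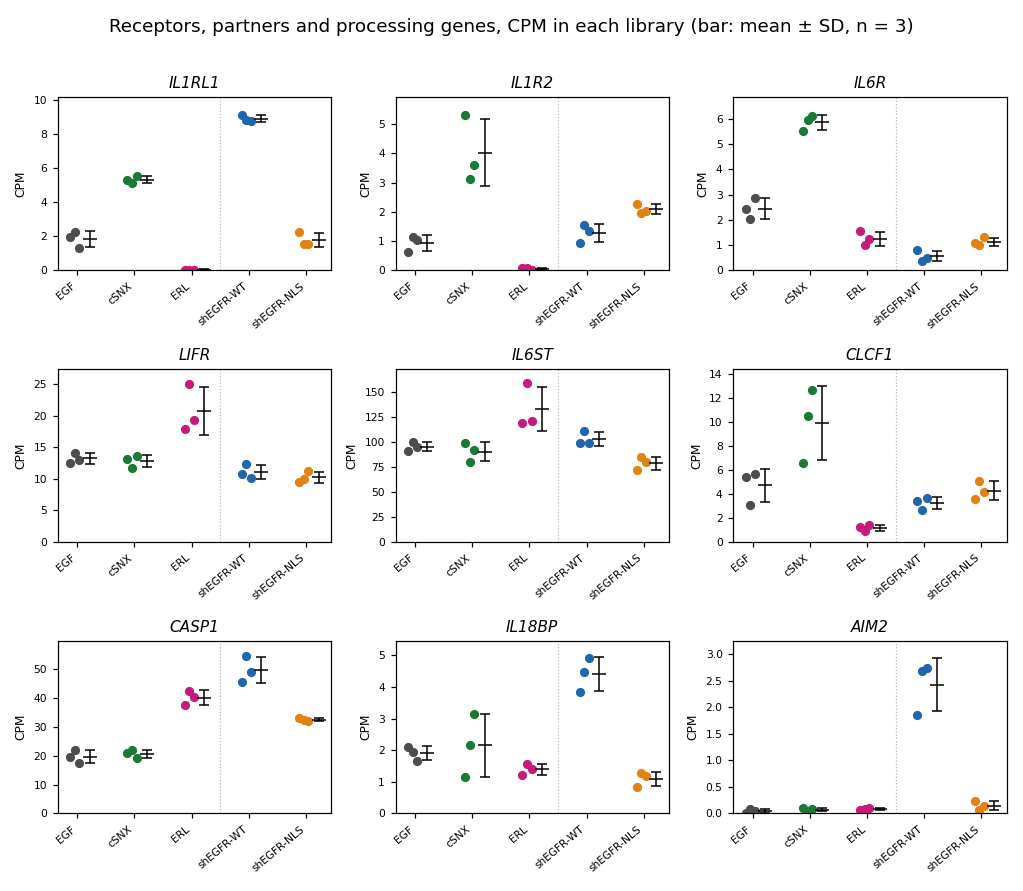
Level in CPM (linear axes from 0, a different scale per gene) of 9 receptor, ligand and processing genes in the 15 libraries, with the 3 replicates as points, the mean ± SD beside them and a dotted line between the experiments. IL1RL1, IL1R2, IL6R and CLCF1 stood highest with cSNX1.3 among the drug groups and lowest with erlotinib, while CASP1, IL18BP and AIM2 stood higher in WT than in ΔNLS cells.

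Among 27 signaling genes downstream of the receptors, all tested, 4 were higher and 10 lower with erlotinib, 1 was higher with cSNX1.3, and 4 were higher and 7 lower in ΔNLS cells. These are 51.9%, 3.70% and 40.7% of the list, against 44.0%, 6.07% and 41.4% of all genes. The share called in either direction thus stood near the background in all 3 comparisons. By direction, the list leaned lower with erlotinib, where 21.2% of all genes were lower and 22.8% higher. TNFAIP3, a feedback inhibitor of NF-κB, was lower with erlotinib (log2 fold change -1.45, edgeR adjusted p = 1.29e-06) and in ΔNLS cells (-0.88, edgeR adjusted p = 1.53e-05). SOCS3, the feedback inhibitor of gp130 signaling, was the gene higher with cSNX1.3. It was at 15.4, 14.97 and 16.3 CPM with EGF and 22.2, 24.1 and 23.4 CPM with cSNX1.3, a log2 fold change of 0.58 (SE 0.11, edgeR adjusted p = 0.00299). Of 7 genes that control decay of cytokine mRNA, 5 were lower and 1 higher with erlotinib, 0 were called with cSNX1.3 and 1 was lower in ΔNLS cells, that is 85.7%, 0% and 14.3% of the list. ZFP36L2, which binds AU-rich elements, was lower with erlotinib (log2 fold change -0.90) and in ΔNLS cells (-0.74). For cSNX1.3 and this list, 0 genes had an unadjusted p under 0.05 in edgeR and DESeq2 called 0. Of 31 other interleukins and colony stimulating factors 5 were tested in each experiment. IL15, which sustains natural killer cells, was higher with erlotinib (log2 fold change 0.92, edgeR adjusted p = 0.000600), and TSLP, a cytokine of epithelial cells, was lower in ΔNLS cells (log2 fold change -1.39, edgeR adjusted p = 6.49e-05).

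Over these lists, which do not hold the members, erlotinib changed 61.8% of the 68 genes that could be tested, cSNX1.3 13.2% and the ΔNLS line differed from WT in 47.9% of 71. These stand beside 44.0%, 6.07% and 41.4% of all genes. The shares include called genes with no library over the filter's minimum in 1 of the groups compared. These were IL1R2 and IL1RL1 with erlotinib, the 1 gene called lower with cSNX1.3, and AIM2 and CNTFR in the lines.

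To see which genes shared the pattern of a member over the 5 groups, group means of log2 CPM were centred on their mean over groups and compared among 13391 genes with at least 1 CPM. For LIF the smallest root mean square differences were those of GLIPR1 (0.24) and DUSP4 (0.32), on the log2 scale. DUSP4 is a phosphatase that acts on ERK and is itself induced by it. Its mean level was 102 CPM with EGF alone, rising to 143 CPM in the cSNX1.3 group and dropping to 11.7 CPM under erlotinib. In the lines DUSP4 was at 116 CPM in WT and 65.7 CPM in ΔNLS cells. GLIPR1 was scarcer, at 4.42 CPM with EGF, 5.79 with cSNX1.3, 0.369 with erlotinib, 2.91 in WT and 2.08 in ΔNLS cells. For IL18 the genes most alike were LMO7 (0.09) and ITPRID2 (0.15), and for IL1RN they were SAMD9 (0.11) and TSPAN6 (0.11). LMO7 was at 145 CPM in WT, 55.5 in ΔNLS and 29.9 CPM with erlotinib, against 131, 45.1 and 28.6 CPM for IL18. These likenesses rest on 5 group means and are a description.

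**Figure D4:**
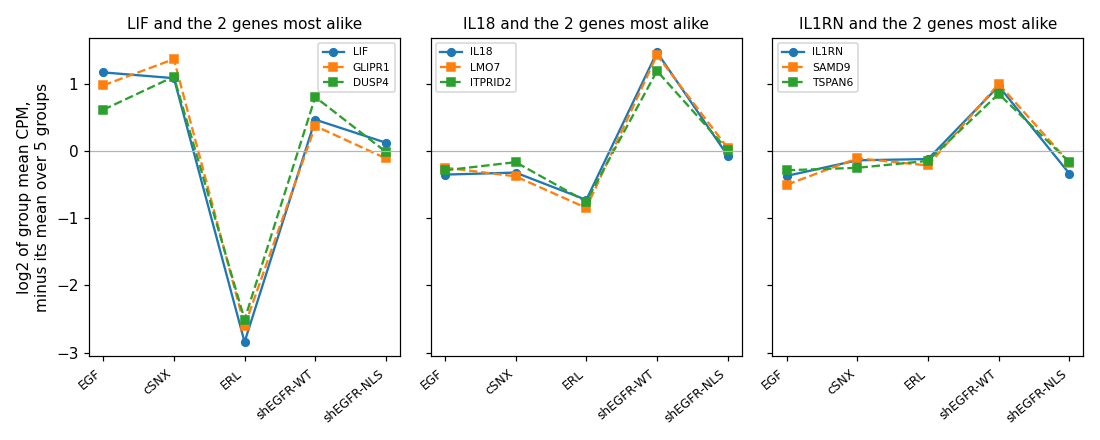
Log2 of the mean CPM of each group, minus its mean over the 5 groups (y axis), for LIF, IL18 and IL1RN (solid lines) and the 2 genes most alike to each (dashed lines). LIF, GLIPR1 and DUSP4 drop together with erlotinib, while IL18 and IL1RN and their partners peak in WT cells.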

How the data were processed

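RNA-Seq of 15 libraries was analysed. The authors trimmed reads with TrimGalore, aligned them to GRCh38 with STAR and counted paired reads over genes with featureCounts, ignoring strand. The deposited values are raw counts, not normalized. The annotation release is not given in the sources used here. Names and coordinates came from GENCODE 44, to which 61399 of 61552 gene IDs matched and 153 did not. Groups came from the sample labels, and doses and times from the study's methods.

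Counts were tested in edgeR 4.0.16 (R 4.3.3) with filterByExpr, TMM scaling and robust quasi-likelihood fits of the 9 drug or 6 line libraries, or of all 15 for differences between effects. Benjamini-Hochberg adjustment ran over all genes tested, with a threshold of 0.05. CPM are on the TMM scale, and 3 counts or fewer in each library of a group marked the floor. Log2 CPM for shared patterns used a prior count of 2. The code was tested on simulated data with known changes. Intervals of count ratios cover counting error only. Alternatives were DESeq2 1.42.0, its size factors, other filters and fits, a replicate block, an adjusted p under 0.01, leaving out each library and, chosen after seeing the data, GC and length offsets.

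The members, gene lists and tests were chosen with earlier results of these data known. Named genes were all members, EGFR, the 3 called genes of each list with the largest absolute log2 fold change and a mean of at least 1 CPM in each comparison, and the 2 genes most alike to each member of at least 1 CPM. A part of these is given. LIFR, IL6ST, IL1RAP and OSMR, CASP1 and CNTFR in the lines and the leukocyte markers with their counts were added after their values were seen. A gene of the listed ligands is counted with its list but not reported here by name.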

Additional observations from a re-analysis of the deposited data

Results flagged for a closer look

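These results differed between groups under a test of the difference itself, and for none of them was the reason tested. In the fit of all 15 libraries, the ΔNLS effect minus the cSNX1.3 effect was -1.53 for IL1RN and -1.57 for IL18 on the log2 scale, both lower in ΔNLS than in WT cells and not called with cSNX1.3 against EGF. The ΔNLS effect minus the erlotinib effect was -1.55 for IL1RN, -1.16 for IL18, 1.74 for IL11 and 3.65 for LIF. In the drug experiment, erlotinib and cSNX1.3 differed by -0.40 for IL18 and by -3.90 for LIF. The ΔNLS and drug effects come from 2 experiments with different cells, and the value for IL11 rests on 4 to 26 counts per library.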

How the results depend on the processing

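Of 533 values of members recomputed under other settings, 492 kept their direction and their side of the threshold, 22 fell out of the calls, 6 came into them and 13 changed sign. None of the values that changed sign was called, and for none was the cause tested. The calls of LIF with erlotinib and of IL18 and IL1RN in ΔNLS cells were kept in every setting that tested them.

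The values that changed sign, on the log2 scale, were those of IL32 with cSNX1.3 (0.086 with the replicate block, and from -0.39 to 0.84 over fits that leave out 1 library), of IL32 with erlotinib (from -0.69 to 0.54 with 1 library left out), of IL32 in erlotinib against cSNX1.3 (-0.62 to 0.014), of LIF with cSNX1.3 (-0.21 to 0.045), of IL1RN in erlotinib against cSNX1.3 (-0.035 with GC and length offsets, and -0.019 to 0.069 with 1 library left out) and of IL6 in the difference of the ΔNLS and cSNX1.3 effects (-1.06 to 0.60).

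For cSNX1.3 against EGF, 956 genes were called, 470 at an adjusted p under 0.01, 1444 in the fit of all 15 libraries and 526 to 1039 with 1 library left out, the low counts being 531 and 592 when EGF replicate 1 or 3 was left out and 526 when cSNX1.3 replicate 2 was. For the difference of the ΔNLS and cSNX1.3 effects, 3819 genes were called and 2359 at an adjusted p under 0.01. With erlotinib, members called lower went from 2 to 1 at an adjusted p under 0.01, and members called higher from 0 to 1 (IL1RN) with at least 10 counts in every library, in the fit of all 15 libraries and over fits that leave out 1 library (0 to 1). In ΔNLS cells, members called higher went from 1 to 0 at an adjusted p under 0.01, with at least 10 counts in every library (where IL11 was not tested) and with DESeq2, and ranged from 0 to 2 with 1 library left out. In the difference of the ΔNLS and erlotinib effects they went from 2 to 1 at an adjusted p under 0.01, with no filter and with at least 10 counts in every library, and ranged from 1 to 3 with 1 library left out.

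Replicate numbers are shared between groups, but deviations of same-numbered libraries correlated between -0.21 and 0.25, so the numbers were not taken as pairs. With the replicate block 6707 genes were called with erlotinib, 841 with cSNX1.3 and 5766 in ΔNLS cells, and no call of a member changed. With a prior count of 0.5, 1 of the 2 genes most alike to IL1RN stayed, and both of those of IL18 and LIF did. Changes in IL6, IL11 and IL32 are limited by 0 to 26 counts per library.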
